A study of Brassica rapa subsp. pekinensis with 2 samples.

Results

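Genes of very-long-chain fatty acid synthesis and of glycerolipid metabolism were examined in flower buds of the Chinese cabbage line AB02 (Brassica rapa subsp. pekinensis). AB02 is an AB line, which segregates into male fertile and male sterile plants, here by a nuclear locus with multiple alleles. RNA was sequenced from buds of fertile plants and from buds of sterile plants of the line, with 1 library of each, so no difference below has a replicate check. The labels give whole buds of vernalized plants grown in a greenhouse, and state neither the bud stage nor how many plants a library holds. In whole buds, fewer cells of a type and less RNA per cell cannot be told apart.

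The set holds the cabbage genes that the authors listed under the KEGG pathways fatty acid elongation (4 genes) and glycerolipid metabolism (5 genes). Leaving out 1 gene that is also listed under ascorbate and aldarate metabolism gave 8 genes of 41019 in all. They were chosen by the measured difference between these same libraries, because the authors' pathway table held only genes of their list of differing genes, 143 of 1012. The direction and size of the differences are therefore descriptions of the chosen genes and carry no test. The 8 genes correspond to 6 Arabidopsis genes, since KCS7 and SDP1 each have 2 copies in the set. Further copies that the authors did not name would not be seen here.

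Very-long-chain fatty acids are built in the endoplasmic reticulum by a multi-enzyme elongase that adds carbon units from malonyl-CoA. The 3-ketoacyl-CoA synthases (KCS) carry out the first, condensing step of each round and set which chain lengths are made. The products enter surface waxes, suberin, sphingolipids and, in anthers, the lipid-rich coat that the tapetum lays on pollen grains. Glycerolipids are membrane and storage lipids on a glycerol backbone. Acyltransferases attach fatty acids to it, galactosyltransferases make the galactolipids of plastid membranes, and lipases release fatty acids from stored triacylglycerol. The pathway names do not cover every gene equally. AT5G47330 is an alpha/beta hydrolase of the palmitoyl protein thioesterase type and not an elongase subunit, and SDP1 is a lipase that breaks down storage lipid.

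All 8 genes were lower in sterile buds. The KCS genes had the highest levels in fertile buds, led by KCS17, for which the sterile library held 0 reads. Both KCS7 copies, GPAT5 and MGD2 were lower by 37.6-fold or more and had at most 5 sterile reads each. The thioesterase-type gene and both SDP1 copies were lower by between 6.3-fold and 8.11-fold and held 31 of the 40 sterile reads of the set. Levels are given as RPKM, reads scaled to the length of the gene and to the total of the library. Over the genes with Bra identifiers the median level was 3.44 RPKM in fertile buds against 3.07 RPKM in sterile buds. The RPKM values correspond to library totals of 1803154 reads (fertile) and 1567647 reads (sterile).

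**Figure D1:**
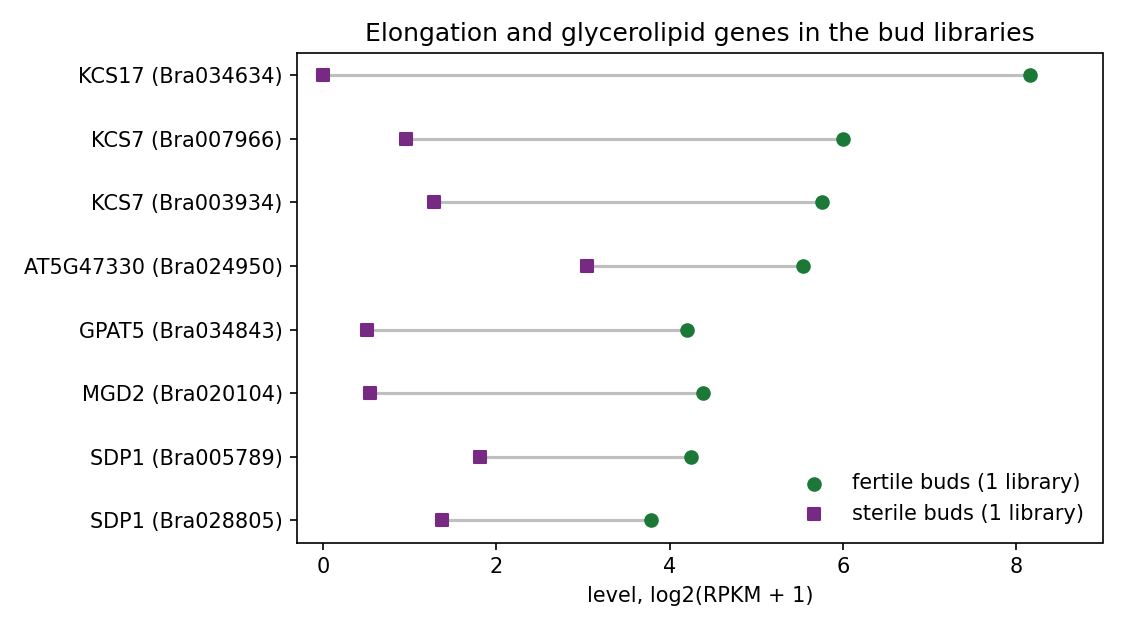
Level of each of the 8 genes as log2(RPKM + 1) in the fertile library (circles) and the sterile library (squares), 1 library each. The sterile value lies left of the fertile value in every gene, and KCS17 spans the widest range, from 8.16 to 0.

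KCS17 (Bra034634, AT4G34510), a ketoacyl-CoA synthase, stood at 285 RPKM in fertile buds against 0 RPKM in sterile buds. These values came from 733 reads and 0 reads on a gene of 1425 bp. At the fertile level, 637 reads would have fallen on it in a library of the sterile size. Set against 3 reads in the sterile library, which is 1.34 RPKM for this gene, its fertile level was 212-fold higher. The lower end of the 95% Clopper-Pearson counting interval for the observed reads was 172, so 212 is not a lower limit. KCS17 ranked 712 of 41019 genes in fertile buds and alone made up 55.3% of the summed RPKM of the set there. With 0 sterile reads, its position among the genes of the sterile library is not defined.

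KCS7 is a second ketoacyl-CoA synthase, and both of its copies in the set were expressed in fertile buds at levels below that of KCS17. Bra007966 stood at 63.3 RPKM in fertile buds against 0.945 RPKM in sterile buds, from 154 and 2 reads. Bra003934 stood at 53.4 RPKM and 1.42 RPKM, from 216 and 5 reads. The former was 66.9-fold lower in sterile buds (interval 18.2 to 558) and the latter 37.6-fold lower (interval 15.8 to 117). Each interval contains the fold of the other copy, so the copies could not be separated at this depth. With their reads added together, 370 fertile and 7 sterile reads gave a ratio of 46 (interval 22.1 to 115).

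The order of the KCS7 copies in fertile buds depended on the gene length behind RPKM. Bra003934 had more reads than Bra007966, but its length was 2244 bp against 1350 bp, a ratio of 1.66. At a length of 1350 bp its level in fertile buds would have been 88.7 RPKM and its level in sterile buds 2.36 RPKM. The fold between the libraries does not depend on the length. The reads of near-identical copies can be divided between them by the mapping, and the sources used here do not say how reads matching both copies were counted. The summed value above does not depend on that division within the pair. It could still change if shared reads were dropped or counted for both copies, and how alike the copies are was not examined.

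The remaining gene of the elongation pathway was Bra024950 (AT5G47330), the thioesterase-type hydrolase. It stood at 45.7 RPKM in fertile buds against 7.25 RPKM in sterile buds, from 116 and 16 reads. That is 6.3-fold lower in sterile buds (interval 3.72 to 11.4), the smallest fold of the set and the highest sterile level. Its interval did not overlap that of the summed KCS7 copies, and the intervals cover counting error only. In fertile buds it was close to the KCS7 copies in level, and in sterile buds it was above them by more than 5 RPKM. In the sterile library it ranked 15843 of 41019 genes, and the KCS7 copies ranked 25018 and 23728. Only 27279 genes were above 0 in that library, so the KCS7 copies were among the lowest of the genes with reads.

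Among the glycerolipid genes, GPAT5 and MGD2 make lipid. GPAT5 (Bra034843, AT3G11430), a glycerol-3-phosphate acyltransferase known from suberin synthesis in Arabidopsis roots and seed coats, stood at 17.3 RPKM in fertile buds against 0.424 RPKM in sterile buds. MGD2 (Bra020104, AT5G20410), a synthase of the galactolipid MGDG known in Arabidopsis for its role under phosphate starvation, stood at 19.9 RPKM in fertile buds against 0.449 RPKM in sterile buds. Each sterile value is a single read, against 47 and 51 reads in fertile buds. GPAT5 was 40.9-fold lower in sterile buds (interval 6.98 to 1648) and MGD2 44.3-fold lower (interval 7.61 to 1785). With 1 sterile read, the upper ends have little meaning, and the lower ends lie within the intervals of the SDP1 copies.

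SDP1 encodes the oil-body lipase that starts triacylglycerol breakdown, best known from germinating Arabidopsis seeds. Bra005789 stood at 18 RPKM in fertile buds against 2.52 RPKM in sterile buds, from 74 and 9 reads. Bra028805 stood at 12.8 RPKM and 1.58 RPKM, from 56 and 6 reads. They were 7.15-fold (interval 3.57 to 16.2) and 8.11-fold lower in sterile buds (interval 3.5 to 23). The copies were similar in length, at 2280 bp and 2421 bp, and added together they gave a ratio of 7.53 (interval 4.4 to 13.8). In fertile buds SDP1, GPAT5 and MGD2 lay within 12.8 to 19.9 RPKM, so these 4 genes were near each other in level. In sterile buds the SDP1 copies lay above GPAT5 and MGD2, by 15 reads on the SDP1 pair against 2 reads on the other pair.

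**Figure D2:**
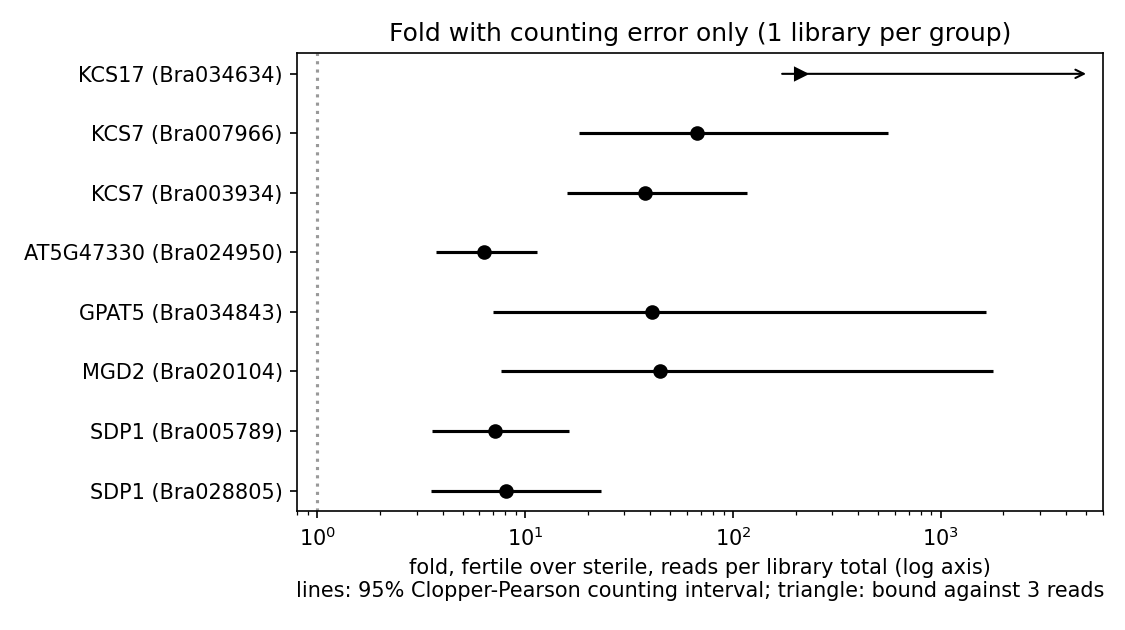
Fold of fertile over sterile for each gene on a log axis, with 95% Clopper-Pearson counting intervals as lines. For KCS17 the triangle, labelled as a bound, is the ratio of 212 against 3 reads, and the arrow has no upper end. The thioesterase-type gene and the SDP1 copies lie between 6.3 and 8.11, the other 4 genes with sterile reads between 37.6 and 66.9.

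The makeup of the set differed between the libraries. The 8 genes summed to 516 RPKM in fertile buds against 14.6 RPKM in sterile buds, from 1447 and 40 reads. The 3 KCS genes made up 77.9% of the summed RPKM in fertile buds. The thioesterase-type gene and the SDP1 copies made up 14.8% in fertile and 77.8% in sterile buds. These are the genes of the set with the most sterile reads, so a high share there follows from grouping them. In fertile buds the order of levels was KCS17, the KCS7 copies, the thioesterase-type gene, MGD2, SDP1 Bra005789, GPAT5 and SDP1 Bra028805. In sterile buds the thioesterase-type gene was first, followed by the SDP1 copies and then by the KCS7 copies, MGD2, GPAT5 and KCS17. The neighbours in the sterile order are separated by few reads, and SDP1 Bra028805 and KCS7 Bra003934, for example, had 6 and 5 reads.

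Differences were also expressed as log2(RPKM + 1), sterile minus fertile, which understates differences at low levels. All 8 genes passed a filter that kept genes at 1 RPKM or more in either library, each through its fertile value, and 4 of them were above 1 RPKM in sterile buds too. All 8 were lower by at least 1 on this scale. Over all genes kept, 4042 of 27940 (14.5%) were lower by at least 1. Among the 11402 genes kept whose fertile level lay within the range of the set, 12.5% were. In the authors' deposited table, 906 of the 41019 genes (2.21%) were listed as higher in fertile buds, and the 8 genes are part of that list by the way they were chosen. Nothing about the set can be read from these counts, because the choice fixed the direction. The differences ran from -2.42 for SDP1 Bra028805 to -8.16 for KCS17, with a median of -3.77. The median over all genes kept was 0.17 with RPKM as deposited. It was 0.197 with a pseudocount of 0.1 RPKM, 0.124 with 5 RPKM, 0.198 with a filter of 5 RPKM and 0 without the filter on low values. Scaling the sterile library gave 0 with the median ratio and -0.027 with a trimmed mean of log ratios. Both scalings centre the libraries on each other, so these values do not inform on the direction of the median. Differences of -2.42 or lower were found in 5.23% of the genes kept.

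**Figure D3:**
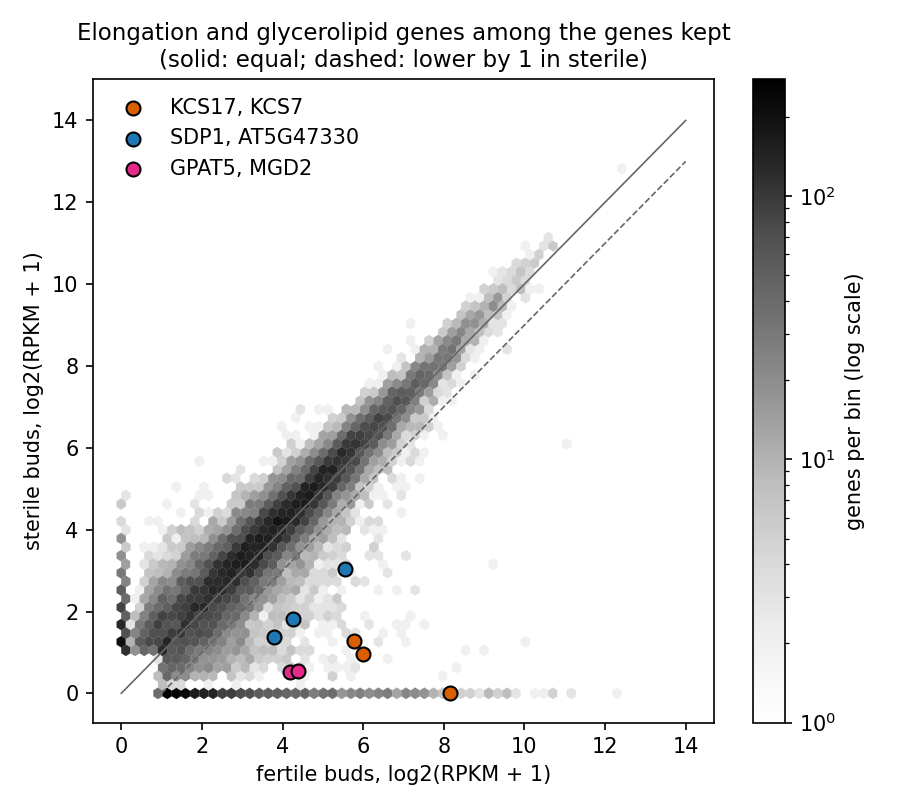
Sterile against fertile level, as log2(RPKM + 1), for the 27940 genes kept (grey bins, shaded by number of genes on a log scale) and for the 8 genes (coloured points); the solid line marks equal levels and the dashed line a value lower by 1 in sterile buds. The 8 points lie below the dashed line, KCS17 at 0 in sterile buds.

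Beside the other genes that the authors listed as higher in fertile buds, the 8 genes are described by level and by fold. Of the 906 genes, 475 (52.4%) had 0 reads in sterile buds, and 1 of the 8 genes, KCS17, did. The median fertile level was 58.3 RPKM over the 906 genes and 32.8 RPKM over the 8, and 2 of the 8, KCS17 and KCS7 Bra007966, were above the former. Folds can be set side by side only for genes with sterile reads, 431 of the 906 and 7 of the 8. The median ratio of fertile over sterile RPKM was 17.8 over the 431 genes and 37.6 over the 7. This restriction removed 475 of the 906 genes but 1 of the 8, so these medians do not place the set among all listed genes. The KCS7 copies, GPAT5 and MGD2 lay above 17.8, and the SDP1 copies and the thioesterase-type gene lay below it. For KCS17 the log2 fold change of 9.79 in the authors' deposited table rests on 0.852 reads put in place of 0, so it is not a measured fold. With such values included, the median log2 fold in the authors' deposited table was 5.79 over the 906 genes and 5.53 over the 8. Of the 8 genes, 2 lay above 5.79.

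The 8 genes lay well inside the limits of the authors' list by q-value, but not all of them by fold. Among the 906 genes listed toward fertile, ranked by the authors' fold, Bra024950 was 840, SDP1 Bra005789 819 and SDP1 Bra028805 803. KCS17 ranked 45, and the KCS7 copies, MGD2 and GPAT5 ranked from 353 to 532. The ranking includes 475 genes with 0 sterile reads, KCS17 among them, whose folds rest on reads put in place of 0. The highest q-value of the 8 genes in the authors' deposited table was 1.84e-05, for SDP1 Bra028805, against a highest q-value of 0.000999 over all listed genes. The lowest log2 fold change toward fertile buds among listed genes above 0 in both libraries was 2.25 in the authors' deposited table, and 2.9 among the 8 genes, for the thioesterase-type gene Bra024950. These log2 values exceed the log2 ratio of RPKM by 0.239, a constant offset in the authors' deposited table. The gene at 2.25, Bra000060, stood at 45 and 11.1 RPKM, a ratio of 4.03. The unlisted gene Bra017847 stood at 15.6 and 3.87 RPKM, a ratio of 4.02. The ratio alone did not separate listed from unlisted genes, since 145 unlisted genes with fertile levels in the range of the 8 and above 0 in both libraries had ratios of 4.03 or more. Neither pathway passed the authors' own enrichment test. The elongation pathway held 3 of its 27 Arabidopsis genes in the authors' deposited table (p-value 0.0609, corrected 0.805). The glycerolipid pathway held 4 of 44 in the authors' deposited table (p-value 0.0596, corrected 0.805). The SDP1 copies alone appeared in 8 pathways of that table, from steroid biosynthesis to arachidonic acid metabolism, so those pathways share these genes.

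Other genes of lipid metabolism with a name were taken from the remaining lipid pathways of the authors' table and from lists of Arabidopsis codes. Of 21 KCS codes, only those of KCS7 and KCS17 were paired with a cabbage gene, and of 12 acyltransferase codes only that of GPAT5. None of 3 codes for the other elongase subunits and none of 8 codes for sporopollenin synthesis, a tapetum pathway, were paired. A code was paired only if the authors named it for a gene, as they did for 225 genes, against 1012 in their list of differing genes. An unpaired code can therefore still have a gene in that list. The other members of these families were not analysed here, and the levels of tapetum markers beside the 8 genes were not tested. The lipid pathways added 7 genes, among them ALDH2B7 (Bra024619), the gene left out of the set. By the same size limit 6 of the 7 were lower and 1 was higher in sterile buds. Their median difference was -3.74, which is the value of ALDH2B7. Of the 143 genes listed there with a pathway, 90.2% were lower, so the number of lower genes does not set lipid genes apart.

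Phospholipase D, which cleaves the head group from membrane phospholipids, was represented by the copies of PLDALPHA2 that the authors had listed. Bra030375 stood at 29.1 RPKM in fertile buds against 0 RPKM in sterile buds, from 128 and 0 reads. Set against 3 sterile reads its ratio was 37.1 (lower end of the interval 29.7). Bra040960 stood at 22.7 and 0.262 RPKM, from 100 reads and 1 read. SMO1-1 (Bra033117), a sterol methyl oxidase, was the most abundant of the 7 in fertile buds at 145 RPKM, and at 2.84 RPKM it was 51.1-fold lower in sterile buds (interval 19.7 to 189). FAB1 (Bra008173), a condensing enzyme of plastid fatty acid synthesis, had 27 reads in fertile and 0 in sterile buds. Against 3 sterile reads its ratio was 7.82 (lower end of the interval 5.94). Bra005143 (AT2G38010), of the sphingolipid pathway, stood at 20.1 and 2.86 RPKM, a ratio of 7.04 (interval 3.64 to 15.2).

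The exception was OPR1 (Bra008271), a reductase listed under alpha-linolenic acid metabolism, at 23.2 RPKM in fertile buds against 159 RPKM in sterile buds. Its sterile level was 6.88 times the fertile one (interval 5.04 to 9.58). The gene left out of the set, the aldehyde dehydrogenase gene ALDH2B7 (Bra024619), stood at 75.7 RPKM in fertile buds against 4.75 RPKM in sterile buds, from 220 and 12 reads. Its ratio of 15.9 (interval 8.94 to 31.3) lay between the lower and the higher folds of the 8 genes. The interval overlapped those of all the 8 genes except KCS17, so this position is not settled by the reads.

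**Figure D4:**
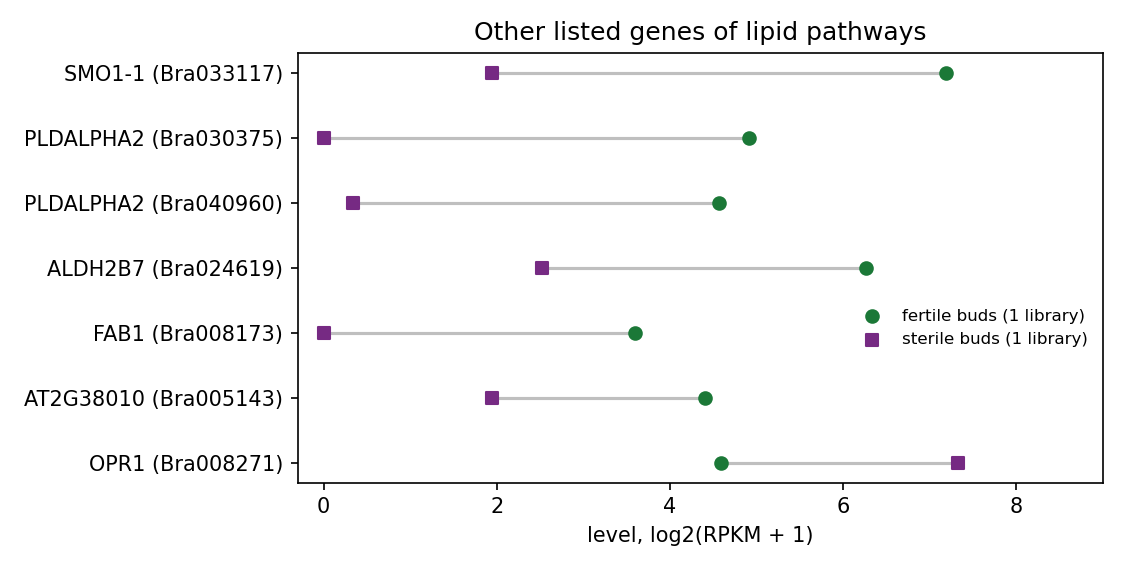
Level of the 7 other named genes of lipid pathways, ALDH2B7 included, as log2(RPKM + 1) in the fertile library (circles) and the sterile library (squares), 1 library each. The sterile value is lower in 6 genes and higher in OPR1, where it corresponds to 159 RPKM against 23.2 RPKM.

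The genes most like KCS17 in level were sought by distance in log2(RPKM + 1) over the 2 libraries, which with so few libraries amounts to a similar fertile level and 0 sterile reads. The nearest was Bra008228 (AT1G75870) at 283 RPKM in fertile buds, with a distance of 0.012. It was followed by Bra039133 at 299 RPKM and Bra001013 at 271 RPKM, both matching AT3G01240, with distances of 0.068 and 0.075. These 3 genes had 0 RPKM in sterile buds and were nearest both among genes with an Arabidopsis code and among all genes. At or above the fertile level of KCS17, 61 genes had 0 reads in sterile buds, KCS17 included.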

How the data were processed

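The authors deposited RPKM per gene for 1 fertile and 1 sterile library, per the file headers, and a table of differing genes with a log2 fold change, p-value and q-value per gene, also per the file headers. The submitters' processing notes name TopHat. The sources used here give no version, genome build, read counter or test. Names came from the authors' pathway and description tables.

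Reads were recovered from the authors' deposited fold changes and p-values. For the 481 listed genes at 0 in 1 library, fold changes were proportional to whole reads, and p-values followed a normal statistic of these reads. Applied to 522 genes above 0 in both libraries, the same statistic gave whole reads in 522, with a largest deviation of 3.2e-10 (tolerance 0.0001). For 9 further genes the p-value was too small. The same fit gave the library totals, and the gene lengths then came out as multiples of 3 bp in 1003 of 1003 genes, as coding lengths do.

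Genes at 1 RPKM or more in either library were kept, and those differing by 1 or more in log2(RPKM + 1) were counted as lower or higher, which is a limit on size without a test. With 1 library per group no p-value was computed here. Ratios carry a 95% Clopper-Pearson interval of the reads, and a gene with 0 reads is set against 3 reads in that library. Reads are not independent molecules, so intervals and bounds cover counting error only. The procedures were run on data simulated with the same statistic and with counting error only. That checks the computation, and not whether the authors used this statistic. The named genes were the 8 genes, the other lipid genes with a code, and the 3 nearest to KCS17. The genes and lists were chosen with earlier results of these data known. Alternatives were the pseudocount, the filter, the scaling of the sterile library and the gene of the ascorbate pathway. Python 3.11.15, SciPy 1.17.1 and pandas 2.3.3 were used.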

Additional observations from a re-analysis of the deposited data

How the results depend on the processing

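All 8 genes remained past the size limit with a pseudocount of 0.1 or 5 RPKM and after rescaling the sterile library by the median ratio or by a trimmed mean of log ratios, and so did 9 of 9 with ALDH2B7 added. The scalings lowered the sterile library by 0.202 and 0.233 on the log2 scale, so they could not have taken a gene back inside the limit. The size moved with the pseudocount. The median difference was -3.77 with 1 RPKM, -5.1 with 0.1 RPKM and -2.12 with 5 RPKM. Over these 4 settings the single differences ran from -1.44 to -11.5, and 21 of 32 stayed inside the counting interval. All that left it came from a changed pseudocount, which changes the quantity itself. Neither scaling moved a gene out, and KCS17 with 0 sterile reads cannot move with scaling. With 5 RPKM as pseudocount 2922 genes passed the size rule in place of 7266, 1935 lower and 987 higher in place of 4042 and 3224. With a filter of 5 RPKM 4437 passed, 2426 lower and 2011 higher, which follows from fewer genes tested. Among the genes past the size rule, the share of lower genes was 55.6% as deposited and 51.5% with a pseudocount of 0.1 RPKM. It was 65.8% with the median ratio, 67.3% with the trimmed mean and 66.2% with the larger pseudocount. Tripled read numbers were not run, because exact reads were known for the 8 genes. No library could be left out, and no paired analysis was possible because each group has 1 library. Depth limits the upper end of folds with 0 to 2 sterile reads.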
